A study of Mus musculus with 6 samples.

Results

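Wnt ligands and R-spondins are the secreted signals that tie the tissues of the forming kidney to one another, and 8 of them were followed here: Wnt6, Wnt7b and Wnt9b from the ureteric epithelium, Wnt4 and Rspo1 from the nephron lineage, and Wnt2b, Wnt5a and Rspo3 from the stroma. They were chosen by symbol, and all 8 were found among the 23219 symbols of the deposited table, which holds 23 Wnt and R-spondin symbols in all. The material was whole kidney RNA from mouse embryos at day 17 (E17). The mutant kidneys had the genotype Six2Cre Mta2flx/flx (3 libraries, mutants 6, 8 and 9), and their controls were Mta2flx/flx without Cre (3 libraries, controls 5, 7 and 11). Both groups carry floxed alleles of Mta2, a subunit of the nucleosome remodelling and deacetylase complex. The Six2 Cre acts in nephron progenitors and so targets Mta2 in the cells that form nephrons, while the ureteric epithelium lies outside that lineage. Because only the mutant kidneys carried Cre, loss of Mta2 and presence of the transgene cannot be told apart.

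Wnt proteins are lipid-modified ligands that bind Frizzled receptors, and in the canonical branch they stabilise beta-catenin, which acts with TCF and LEF factors on target genes. R-spondins bind Lgr receptors and remove the ligases Znrf3 and Rnf43 that clear Frizzled from the cell surface, so they raise the response to a Wnt signal. In the kidney, Wnt9b from the ureteric bud acts on the cap of nephron progenitors, where it supports renewal and starts differentiation. The induced cells then switch on Wnt4, which drives their change into epithelium.

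Levels are given in BPM, a gene's covered bases per 1e+06 covered bases of its library. Libraries held 794 to 1235 megabases of summed coverage, but depth in reads is unknown, so no counting interval is given. Separate embryos are not stated in the labels, and p-values therefore measure spread between samples that may be technical. Mta2 itself read 140, 189 and 146 BPM in the mutants, against 220, 198 and 210.5 BPM in the controls, with no overlap (mutant mean 75.5% of control, limma log2 fold change -0.41, adjusted p = 0.887). Mutant 6 stood apart on the first principal component (70.3, against -26.2 to -4.4 in the other libraries), and control 11 carried 2.30% of its bases on Lars2, against 0.0739% to 0.482% elsewhere. The 4 kidney marker lists (ureteric, nephron progenitor, committed early nephron and stroma) were each detected in full in all 6 libraries. Adrenal cortex markers summed to 0 to 1.30 BPM in the mutants and 0 to 3.84 BPM in the controls, with none above 0 in every library. Skeletal muscle markers summed to 276 BPM in mutant 9, against 0.934 and 4.83 in the other mutants and 3.39 to 10.5 in the controls.

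The start regions of Wnt6 and Wnt4 are shown because these were the members whose mutant and control values did not overlap. Each runs from 250 bases before to 50 bases after the RefSeq start on GRCm38.p6, the assembly of mm10, plus strand, 5′ to 3′. Capitals mark the GC box GGGCGG on either strand, where matches may overlap. Wnt6 is read at chr1:74771642-74771941 and Wnt4 at chr4:137277385-137277684. The GENCODE model of Wnt4 begins at 137277489, before the RefSeq start, so more than the last 50 bases of its region lie inside that model.
Wnt6: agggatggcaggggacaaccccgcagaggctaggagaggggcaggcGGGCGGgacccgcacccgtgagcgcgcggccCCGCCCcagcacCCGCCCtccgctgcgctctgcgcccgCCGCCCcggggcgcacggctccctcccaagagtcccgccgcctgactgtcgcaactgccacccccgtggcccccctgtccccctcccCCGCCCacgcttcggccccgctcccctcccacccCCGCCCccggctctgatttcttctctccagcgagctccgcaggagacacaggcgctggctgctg
Wnt4: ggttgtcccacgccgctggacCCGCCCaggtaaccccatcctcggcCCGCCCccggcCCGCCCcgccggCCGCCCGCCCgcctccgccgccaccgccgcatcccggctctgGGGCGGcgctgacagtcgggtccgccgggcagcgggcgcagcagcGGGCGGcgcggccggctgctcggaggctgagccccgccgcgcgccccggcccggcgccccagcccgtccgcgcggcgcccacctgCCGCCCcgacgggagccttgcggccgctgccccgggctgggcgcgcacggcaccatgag
The Wnt6 region held 6 GC boxes and 31 CpG dinucleotides, and the Wnt4 region 8 GC boxes and 51 CpG, where the median of 32851 mouse start regions of this length is 7 CpG. At least 1 GC box was present in 35.7% of those regions. Start regions were found for 5 of the 8 members, of which that of Wnt2b also reached more than 50 bases into its GENCODE model. Those of Wnt9b and Wnt2b held 3 and 4 GC boxes with 29 and 43 CpG, and that of Rspo1 held 0 GC boxes with 29 CpG. A CpG number above the median was thus common to all 5 and not particular to Wnt6 and Wnt4. The short TCF/LEF core CTTTG was searched on both strands and was found once, in Wnt9b, against 53.9% of all regions. The letters TATAAA were in none of the 5, against 13.6% of all regions.

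Wnt6 was lower and Wnt4 higher in all 3 mutants than in all 3 controls, and the other 6 members overlapped between the groups. None of the 8 passed the test: limma across 13977 genes with Benjamini-Hochberg adjustment at 0.05 called 0 members and 0% of all genes. At an unadjusted p below 0.05 it had 0 members and 783 genes (5.6%). Among all genes tested, 11.2% had no overlap between the groups in either direction, 6.1% with mutants higher and 5.12% with mutants lower. The 2 of 8 members stand beside that share as a description, since 1 of them, Wnt6, passed the filter on low values only through the controls and had to differ. The median log2 fold change (mutant over control, on the log2(BPM + 1) scale) was 0.03 over the 8 members, with 5 above 0 and 3 below, and 0.02 over all genes tested. In this fit the 95% interval of every member included 0.

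**Figure D1:**
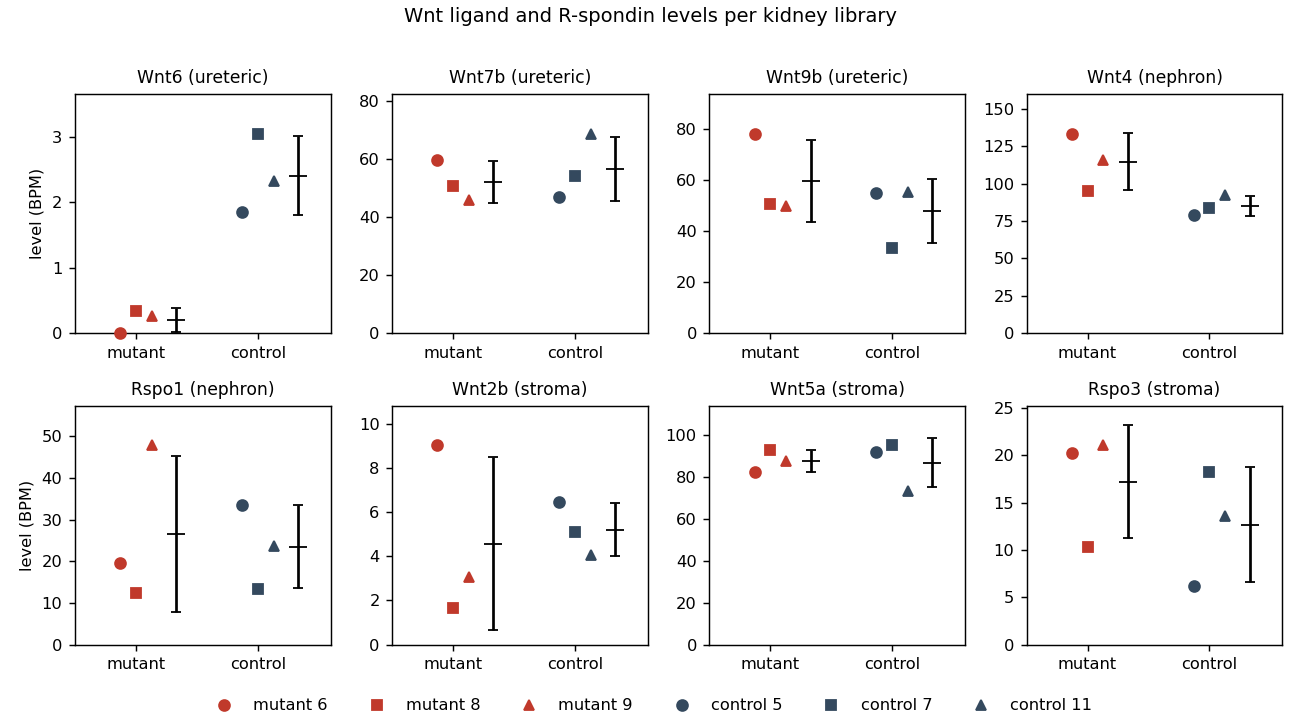
Level of each member in BPM (y axis, from 0, scaled per panel) in the 3 mutant and 3 control libraries, with a horizontal bar for the mean and a vertical bar for the SD. Wnt6 mutants lie at 0 to 0.343 BPM, below all controls, and Wnt4 mutants at 95.3 to 133 BPM, above all controls; the other panels overlap.

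Of the ureteric ligands, Wnt6 was lower in the mutants without overlap, while Wnt7b and Wnt9b overlapped. Wnt6, a ligand of the ureteric epithelium able to induce tubule formation in explants, is encoded on chromosome 1 from 74771892 to 74785322 (plus strand, mm10). It read 0, 0.343 and 0.259 BPM in mutants 6, 8 and 9, against 1.85, 3.04 and 2.33 BPM in controls 5, 7 and 11. All mutants were therefore below all controls, but at the bottom of the measurable range. The values rest on 0, 322 and 258 covered bases in the mutants and on 1467, 3755 and 2877 in the controls, where the merged exons span 2071 bases, so the exons were covered at a mean depth of 0 to 0.155 in mutants and 0.708 to 1.81 in controls. The mutant mean was 8.35% of the control mean (0.201 ± 0.179 against 2.41 ± 0.600 BPM, SD, n = 3 each; exact two-sided permutation p = 0.1, the smallest that 3 against 3 allow). On the log2(BPM + 1) scale, which understates changes at such levels, Wnt6 had a log2 fold change of -1.50 (SE 0.83, 95% interval -3.18 to 0.17, limma adjusted p = 0.887). Wnt6 entered the test only through the control libraries, the group in which it is high, so its separation adds nothing to a count over tested genes. In the authors' deposited table its ratio of mutant to control mean was 0.0838 with an unadjusted p of 0.00364, and the unadjusted p-values of the other 7 members in that table ran from 0.0630 (Wnt4) to 0.926 (Wnt5a).

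Wnt10a, a ligand gene that begins 6193 bases beyond the end of Wnt6 on the same chromosome, did not share this pattern. It read 3.24, 0.856 and 0 BPM in mutants 6, 8 and 9, against 1.75, 0.432 and 0.202 BPM in controls 5, 7 and 11, and was too low to be tested. Wnt3, which lies 24328 bases from Wnt9b on chromosome 11, was listed at 0 in all 6 libraries.

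Wnt7b, the collecting duct ligand needed for the renal medulla and for oriented duct elongation, lies on chromosome 15 from 85535437 to 85582473 (minus strand). It read 59.8, 50.6 and 45.9 BPM in mutants 6, 8 and 9, against 47.05, 54.3 and 68.6 BPM in controls 5, 7 and 11. The highest value was that of control 11 and the lowest that of mutant 9, with the rest interleaved. Its means were 52.1 ± 7.09 BPM in mutants and 56.6 ± 11.0 BPM in controls (SD, n = 3 each). Its log2 fold change came to -0.11 (SE 0.29, 95% interval -0.69 to 0.47, limma adjusted p = 0.972). The interval bounds the fold between 0.621 and 1.38.

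Wnt9b, the inductive ligand of the ureteric stalk and collecting duct, lies on chromosome 11 from 103727364 to 103749821 (minus strand). It read 78.0, 50.7 and 49.9 BPM in mutants 6, 8 and 9, against 55.0, 33.5 and 55.4 BPM in controls 5, 7 and 11. Mutant 6 was the only mutant above the highest control, and control 7 was the only control below the mutants. The means were 59.55 ± 16.02 BPM in mutants and 48.0 ± 12.55 BPM in controls (SD, n = 3 each), with a log2 fold change of 0.31 (SE 0.30, limma adjusted p = 0.922) that came to 0.08 without control 7. Within each library, the ratio of Wnt9b to Wnt7b, which does not depend on the library total, was 1.30, 1.00 and 1.09 in the mutants and 1.17, 0.617 and 0.808 in the controls (exact permutation p = 0.3, adjusted 0.4 over the 4 ratios computed, which were chosen with the values known).

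In the nephron lineage, Wnt4 was higher in the mutants and Rspo1 varied as widely within each genotype as between them. Wnt4, the ligand of induced cells and early renal vesicles that the medullary stroma also makes, lies on chromosome 4 from 137277489 to 137299726 (plus strand). It read 133, 95.3 and 116 BPM in mutants 6, 8 and 9, against 79.2, 84.1 and 92.2 BPM in controls 5, 7 and 11. All mutants exceeded all controls, but mutant 8 and control 11 were close to touching. The mutant mean was 135% of the control mean (114.7 ± 18.9 against 85.15 ± 6.54 BPM, SD, n = 3 each; exact permutation p = 0.1, the smallest possible). Wnt4 had a log2 fold change of 0.41 (SE 0.24, 95% interval -0.07 to 0.90), with a limma adjusted p of 0.887. The separation rests on the scaling: with each library scaled by the median of its gene ratios, mutant 8 stood at 6.58 and control 11 at 6.62 on the log2 scale, so the groups overlapped, and quantile normalization did the same (6.58 and 6.61). Wnt4 took 28.3%, 28.1% and 32.6% of the summed level per length of the 19 Wnt ligands in mutants 6, 8 and 9, against 23.2%, 26.0% and 27.1% in controls 5, 7 and 11, again without overlap (exact permutation p = 0.1, adjusted 0.333 over the 10 Wnt ligands tested). That share does not depend on library scaling, but it was not among the planned comparisons, and mutant 8 and control 11 were again close. The ratio of Wnt4 to Wnt9b was 1.71, 1.88 and 2.32 in the mutants and 1.44, 2.51 and 1.66 in the controls, which overlapped (mean 1.97 ± 0.315 in mutants and 1.87 ± 0.565 in controls, SD, n = 3 each; exact permutation p = 0.7, adjusted 0.7). Its ratio to the stromal ligand Wnt5a was 1.62, 1.03 and 1.33 in the mutants and 0.864, 0.886 and 1.26 in the controls, which overlapped (exact permutation p = 0.2, adjusted 0.4).

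Rspo1, the R-spondin of the nephron progenitors, lies on chromosome 4 from 124986430 to 125009099 (plus strand). It read 19.65, 12.3 and 47.8 BPM in mutants 6, 8 and 9, against 33.5, 13.4 and 23.7 BPM in controls 5, 7 and 11. Its highest and lowest values were both mutant, and its top mutant exceeded its bottom mutant by 3.89-fold, with 2.49-fold among controls. The log2 fold change was 0.04 (SE 0.44, limma adjusted p = 0.994), and it was -0.48 without mutant 9 and 0.46 without mutant 8, so its direction is set by single libraries.

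The stromal members overlapped between the groups, with Wnt5a the steadiest of the 8. Wnt5a, a ligand mostly of the non-canonical branch in the renal mesenchyme and stroma, lies on chromosome 14 from 28504750 to 28527448 (plus strand). It read 82.2, 92.5 and 87.2 BPM in mutants 6, 8 and 9, against 91.7, 94.85 and 73.2 BPM in controls 5, 7 and 11. The mutants fell inside the range of the controls. Wnt5a had a log2 fold change of 0.02 (SE 0.24, 95% interval -0.48 to 0.51, limma adjusted p = 0.995), which bounds the fold between 0.719 and 1.43.

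Rspo3, an R-spondin of the cortical stroma that nephron progenitors also express, lies on chromosome 10 from 29452416 to 29535867 (minus strand). It read 20.2, 10.3 and 21.05 BPM in mutants 6, 8 and 9, against 6.13, 18.2 and 13.6 BPM in controls 5, 7 and 11. Mutants 6 and 9 were above all controls, and mutant 8 was between control 5 and control 11. Rspo3 had a log2 fold change of 0.47 (SE 0.49, 95% interval -0.52 to 1.45, limma adjusted p = 0.929), and it was 0.06 without control 5 and 0.78 without mutant 8.

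Wnt2b, a canonical ligand of the renal stroma, lies on chromosome 3 from 104945272 to 104961921 (minus strand). It read 9.02, 1.65 and 3.04 BPM in mutants 6, 8 and 9, against 6.47, 5.08 and 4.06 BPM in controls 5, 7 and 11. Mutants 8 and 9 were below all controls and mutant 6 was above them, a 5.46-fold spread within the mutants. The log2 fold change was -0.37 (SE 0.68, limma adjusted p = 0.960), with -0.90 without mutant 6 and 0.06 without mutant 8.

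**Figure D2:**
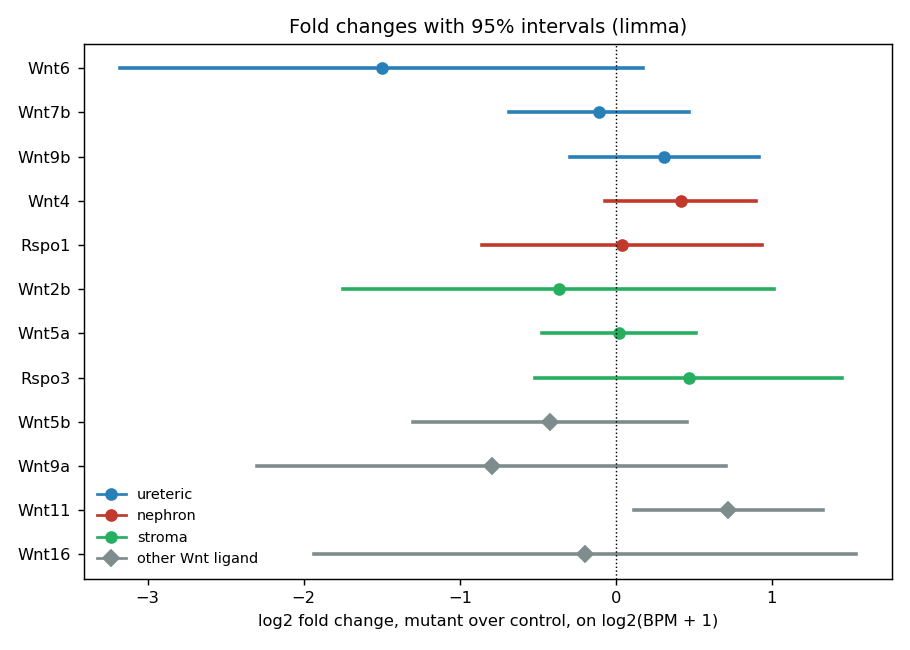
Log2 fold change of mutant over control on the log2(BPM + 1) scale (x axis) for the 8 members by source tissue and for 4 other Wnt ligands that were tested; points are limma estimates and lines their 95% intervals. The interval of each member includes 0, from Wnt6 at -1.50 to Rspo3 at 0.47, and that of Wnt11 (0.72) does not, before adjustment.

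Levels can be compared between genes only per length, here BPM per kb of merged exons. Wnt4 had the highest mean level per length of the 8 members, at 27.4 ± 4.51 BPM per kb in mutants and 20.3 ± 1.56 in controls (SD, n = 3 each). Next came Rspo1 (14.5 ± 10.2 in mutants, 12.8 ± 5.46 in controls), Wnt9b (13.2 ± 3.55 in mutants, 10.6 ± 2.78 in controls), Wnt5a (12.4 ± 0.730 in mutants, 12.3 ± 1.67 in controls) and Wnt7b (11.3 ± 1.54 in mutants, 12.3 ± 2.38 in controls). The ranges of these 4 overlapped within each genotype, so their order is not resolved, and that of Rspo1 (6.70 to 26.1 in mutants) also reached that of Wnt4 in mutants. Rspo3 followed at 5.58 ± 1.94 BPM per kb in mutants and 4.11 ± 1.98 in controls. It lay below the ranges of all 4 in controls, and in mutants below all but Rspo1, whose lowest library (6.70) was under the highest of Rspo3 (6.83). Wnt2b, at 1.38 ± 1.18 in mutants and 1.57 ± 0.365 in controls, was below the range of Rspo3 in both genotypes. Wnt6 was the lowest, at 0.0970 ± 0.0864 BPM per kb in mutants and 1.16 ± 0.290 in controls. Its range touched that of Wnt2b in controls and not in mutants.

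**Figure D3:**
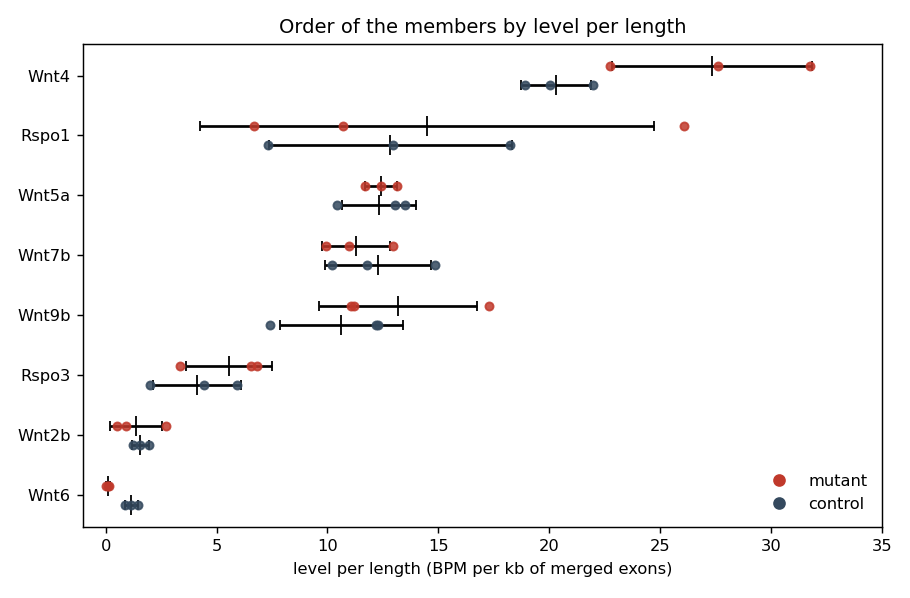
Level per length in BPM per kb of merged exons (x axis, linear) for the 8 members, ordered by the control mean, with mutant libraries above control libraries for each gene; long ticks mark means and bars the SD. Wnt4 lies highest at 27.4 in mutants and 20.3 in controls, and Wnt6 lies lowest at 0.0970 in mutants and 1.16 in controls.

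The 6 Wnt members made up 68.1% to 73.2% of the summed level per length of the 19 Wnt ligands in mutants and 70.0% to 76.4% in controls. Wnt11 made up 21.04 ± 2.01% in mutants and 14.9 ± 4.80% in controls (SD, n = 3 each) and is a ligand of the ureteric tip that belongs to the tip signalling loop with GDNF and RET. Wnt11 read 94.3, 60.3 and 59.1 BPM in mutants 6, 8 and 9, against 60.4, 34.6 and 34.9 BPM in controls 5, 7 and 11. Control 5 lay just above the 2 lower mutants, so the groups overlapped (log2 fold change 0.72, SE 0.30, limma unadjusted p = 0.0213, adjusted p = 0.854). The ratio of Wnt11 to Wnt7b was 1.58, 1.19 and 1.29 in the mutants and 1.28, 0.6375 and 0.509 in the controls (exact permutation p = 0.2, adjusted 0.4). Of the 15 other Wnt and R-spondin symbols, 4 were tested, and Wnt1, Wnt3, Wnt3a, Wnt7a, Wnt8a, Wnt10b and Rspo2 were listed at 0 in all 6 libraries. Wnt5b, a ligand close in sequence to Wnt5a, was lower in all mutants (14.8, 11.4 and 15.5 BPM) than in all controls (16.2, 23.2 and 17.6 BPM), with a log2 fold change of -0.42 and a limma adjusted p of 0.929. Wnt9a had a log2 fold change of -0.79 with overlap.

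In whole kidneys, fewer cells of a type and less RNA per cell cannot be told apart, so each member was also set against the markers of its source tissue within the same library. The mean log2 level of the ureteric markers (13 genes) in mutants minus controls was 0.08 (exact permutation p = 0.6, n = 3 each). Of the 13, 8 had a log2 fold change above 0 and 5 below. Only Ehf had no overlap, with 95.9 to 116 BPM in mutants and 46.6 to 74.6 BPM in controls, against 11.2% of all genes. Relative to the 13 markers, Wnt6 stood at -5.66, -5.02 and -5.39 in mutants 6, 8 and 9, against -3.945, -3.41 and -3.96 in controls 5, 7 and 11, a difference of -1.585 on the log2(BPM + 1) scale. This is given as a description with no test, because Wnt6 passed the filter only through the controls, and in mutant 6, where it was 0, the value is the marker mean with its sign turned. Wnt7b (-0.19) and Wnt9b (0.23) overlapped on this scale too.

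The nephron markers (6 of progenitors and 5 of committed early nephron cells) differed by 0.05 as a mean (exact permutation p = 0.9). Of the 6 progenitor markers, Six2 and Eya1 were higher and Cited1 and Meox1 lower in all mutants than in all controls, and of the 5 committed markers Pax8 was lower (101 to 118 BPM in mutants and 122 to 138 BPM in controls), against 11.2% of all genes without overlap. Relative to them Wnt4 stood at 2.07, 1.26 and 1.81 in mutants 6, 8 and 9, against 1.25, 1.37 and 1.40 in controls 5, 7 and 11. Mutants 6 and 9 exceeded the controls and mutant 8 did not, so the separation of Wnt4 was not kept (difference 0.37, exact permutation p = 0.3). The committed early nephron markers alone summed to 502 to 547 BPM in mutants, just below 548 to 596 BPM in controls. Most of that sum was Jag1 (306 to 344 BPM in mutants and 331 to 359 BPM in controls), which overlapped. Of the 5 markers, 4 had a log2 fold change below 0 and 1 above (Fgf8, 0.96), and only Pax8 had no overlap. The part of these markers in the Wnt4 level was not tested. For Rspo1 the difference was -0.0045.

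The mean over the 13 stromal markers was higher in each mutant than in each control, with mutant means of 7.04 to 7.21 and control means of 6.82 to 6.97 on the log2 scale (difference 0.23, exact permutation p = 0.1), and their sum was 3673 to 4251 BPM in mutants against 3027 to 3552 BPM in controls. All 13 were detected in every library, 9 with a log2 fold change above 0 and 4 below. Of these, 3 had no overlap, all higher in mutants: Fat4 (mean 951 BPM in mutants and 589 BPM in controls), Pdgfra (408 BPM in mutants and 275 BPM in controls) and Ntn1 (164 BPM in mutants and 126 BPM in controls). Among all genes tested, 11.2% had no overlap, 6.1% with mutants higher. Foxd1 (-0.19) and Pdgfrb (-0.34) were below 0 with overlap. Against the 13 markers Wnt5a was at -0.21, Wnt2b at -0.59 and Rspo3 at 0.24, each with overlap. What the higher mean of the stromal markers contributes to Wnt4, which stroma also makes, was not tested. Macrophage markers summed to 42.6 to 49.0 BPM in mutants and 54.8 to 68.9 BPM in controls over 3 genes, all detected in every library.

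**Figure D4:**
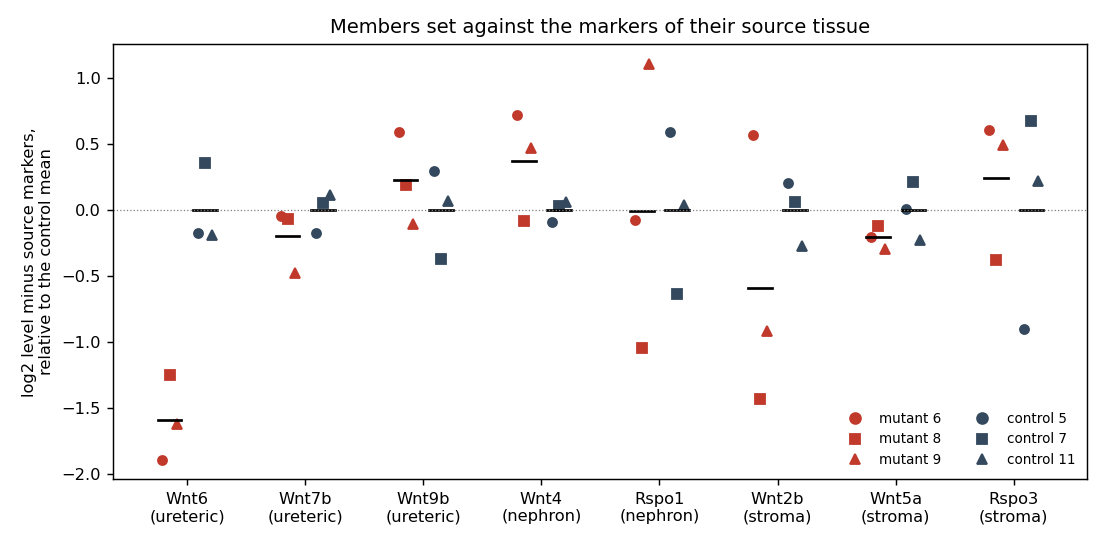
Log2 level of each member minus the mean log2 level of the markers of its source tissue in the same library, shown relative to the control mean (y axis), for 3 mutant and 3 control libraries; bars are group means. Wnt6 mutants lie below all controls (mean difference -1.585), and the groups overlap for the other 7 members.

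Among the 63 tested genes of the pathway outside the 8 members, limma called 0 after adjustment. Their median log2 fold change was 0.17, with 38 above 0 and 25 below, and 8 had no overlap between the groups (4 higher and 4 lower in mutants), against 11.2% of all genes. At an unadjusted p below 0.05 there were 3 higher and 3 lower, against 5.6% of all genes. Both counts of lower genes include Fzd9, which passed the filter on low values only through the controls. Its separation therefore adds nothing to them.

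Genes that finish and release the ligands overlapped throughout. Porcn, which attaches the lipid to Wnt proteins, had a log2 fold change of -0.60, and Wls, their carrier to the cell surface was at 0.05. Notum, a secreted enzyme that removes the lipid and is itself a Wnt target, had 1.40 with overlap. Of the 16 receptors and co-receptors, 11 lay above 0 and 5 below. Fzd9, a Frizzled receptor, read 0.0498, 0 and 0 BPM in mutants, against 4.79, 1.81 and 1.57 BPM in controls (log2 fold change -1.77, SE 0.84, limma adjusted p = 0.871), and like Wnt6 it entered the test only through the controls. Ror1, a receptor for Wnt5a, was at 0.63 and Fzd5 at -0.39, each with overlap.

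On the R-spondin side, Lgr4, an R-spondin receptor, read 138, 185 and 124 BPM in mutants, against 169, 212 and 162 BPM in controls (log2 fold change -0.29). The ligases that R-spondins remove were at 0.73 (Rnf43) and 0.33 (Znrf3), with overlap. The groups of all 5 genes in that list overlapped, as did those of Rspo1 and Rspo3.

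Among the antagonists, 4 of 12 tested genes had no overlap, 2 higher and 2 lower in mutants, where all genes tested gave 11.2%, 6.1% higher and 5.12% lower. Dkk2, a secreted inhibitor of the Lrp5 and Lrp6 co-receptors, read 8.61, 8.07 and 4.16 BPM in mutants, against 16.6, 15.1 and 15.9 BPM in controls (log2 fold change -1.14, SE 0.51, limma adjusted p = 0.863). Sostdc1, which inhibits both Wnt and BMP signals, read 127, 131 and 131 BPM in mutants, against 178, 196 and 172 BPM in controls (log2 fold change -0.48). Apcdd1, a membrane inhibitor induced by Wnt signals, read 119, 149 and 137 BPM in mutants, against 97.4, 91.8 and 89.1 BPM in controls (log2 fold change 0.53). The fourth, Sfrp1, a Wnt-binding decoy named after its values were seen, was at 0.24.

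Inside the cell, the 15 genes of the beta-catenin route had a median of 0.19, and Dvl2, a Dishevelled adaptor, was the one without overlap (68.7, 64.2 and 55.7 BPM in mutants, against 42.55, 51.1 and 46.0 BPM in controls). Bcl9, a beta-catenin cofactor, was at 0.36 and Gsk3b, a kinase of the destruction complex, at 0.28, with overlap. Of 6 feedback targets 5 lay above 0, where 7354 of all 13977 genes tested did. Axin2, the most widely used readout of canonical signalling, read 31.4, 46.4 and 55.7 BPM in mutants, against 24.7, 20.3 and 27.02 BPM in controls (log2 fold change 0.84, SE 0.34, limma unadjusted p = 0.02, adjusted p = 0.854). Lef1 (0.86) and Sp5 (1.61) overlapped between the groups, and Sp5 was near the bottom of the measurable range in controls (0.126 to 1.41 BPM). Nkd2 (0.34), Nkd1 (0.18) and Tcf7 (-0.30) overlapped as well. The Nkd1 means were 16.65 BPM in mutants and 16.75 BPM in controls.

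**Figure D5:**
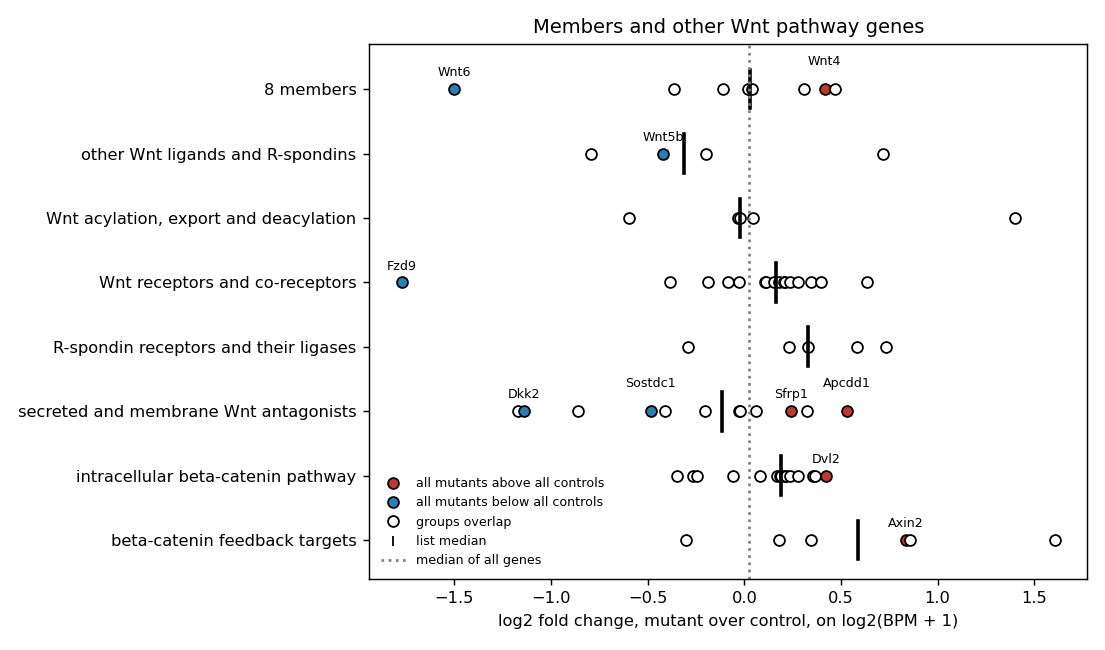
Log2 fold change of mutant over control on the log2(BPM + 1) scale (x axis) for each tested gene of the 8 members and of 7 pathway lists; red points are genes with all mutants above all controls, blue points the reverse, open points overlap, black bars are list medians and the dotted line is the median of all genes (0.02). The feedback targets have the highest median, 0.59, and the other Wnt ligands the lowest, -0.31.

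The genes whose centred log2 levels lay closest to a member over the 6 libraries, by root mean square difference, give its pattern in other terms. They were picked over 6 points from the 13977 genes tested, less the unnamed gene models, so close matches are to be found for most genes. For Wnt4 these were Arvcf (0.032, at 75.3, 51.4 and 64.4 BPM in mutants, against 44.3, 44.6 and 49.55 BPM in controls) and Sidt2 (0.075). For Wnt6 the closest was Fah (0.144). Fah, an enzyme of tyrosine breakdown, read 17.4, 23.6 and 18.25 BPM in mutants, against 44.3, 62.0 and 45.35 BPM in controls, with the libraries in the same order as for Wnt6 (limma adjusted p = 0.336). The nearest genes were Irf2bp2 (0.037) and Rrm1 (0.064) for Wnt7b, and Ranbp1 (0.059) and Birc5 (0.081) for Wnt9b. For the stromal members they were Ankfy1 (0.027) and Egfr (0.037) for Wnt5a, Fyb (0.120) and Alg6 (0.150) for Rspo3, and Zrsr2 (0.121) and Pcdhb4 (0.133) for Wnt2b. For Rspo1 they were Cblc (0.187) and Runx1 (0.207).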

How the data were processed

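Per the labels' protocols, total kidney RNA was depleted of ribosomal RNA with Ribominus and made into Ion Total RNA-seq libraries. Build mm10 and bedtools are named, without role or version, per the submitters' processing notes; which aligner and annotation the authors used is not given here. In the deposited table, signal means summed base coverage for a gene plus 1, multiplied by a library factor that equalises totals. This was inferred from the numbers, since division by the smallest of the column gave whole results for 100% of values (tolerance 0.001). It is neither read counts nor length-corrected. The ratio and the unadjusted p-value in the deposited table are the authors'.

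The factor and the floor were removed and libraries scaled to 1e+06 (BPM). The 13977 genes of 23219 that reached 1 BPM in 3 or more libraries were fitted with limma 3.58.1 on log2(BPM + 1) (R 4.3.3, trend and robust options, two-sided, Benjamini-Hochberg at 0.05). The fit was first tried on simulated data, in 20 runs with 200 changed genes each. It called 8% of 2-fold and 47.8% of 4-fold changes, so a gene not called is not shown to be unchanged. Since the unit was coverage, no count model was run. Single values used exact permutation over 6 libraries (scipy 1.17.1), p at least 0.1. Exon lengths and coordinates are from GENCODE M21 (basic and comprehensive sets). For 6 of 8 members another gene model overlaps the locus, and whether strand was used in counting is not given. Members and lists were chosen with earlier results of these data known. Beyond Mta2 and the members, named genes are the 3 smallest p per pathway list and the 2 nearest patterns per member, unnamed gene models excluded; 1 of these genes is not reported here. Outside this rule, Lars2, the neighbours Wnt10a and Wnt3, Wnt and R-spondin genes at 0, Sfrp1, Nkd1, Nkd2, Tcf7 and the marker genes were named after their values were seen. Alternatives covered scaling, filter, pseudocount, trend, weights and each library left out, with the genes tested held fixed in the last.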

Additional observations from a re-analysis of the deposited data

How the results depend on the processing

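No member was called under any of the alternatives run, and the limma adjusted p of members ranged from 0.628 to 1.00 over them. The limma unadjusted p was below 0.05 for Wnt6 without the filter (0.00214) and without the trend (0.000676). It was also below 0.05 for Wnt4 without the filter (0.0498) and without control 11 (0.0479), and for no other member. The 0 members at that threshold in the main fit thus depend on these settings. Of 127 log2 fold changes recomputed, 117 kept their direction, including all of Wnt4, Wnt6, Wnt9b and Rspo3. Wnt5a changed sign with quantile normalization (-0.0080), median-of-ratios scaling (-0.0057) and array weights (-0.015). With 1 library left out, Wnt5a ran from -0.096 to 0.089, Wnt7b from -0.23 to 0.035, Rspo1 from -0.48 to 0.46 and Wnt2b from -0.90 to 0.055. Without control 11 and mutant 6 together, Wnt2b was at -1.04. The Wnt6 log2 fold change, -1.50 with a pseudocount of 1, was -3.29 with 0.1 and -4.59 with 0.01, and a minimum of 5 BPM removed it. The members without overlap numbered 2, and 1 with quantile normalization, 1 with median-of-ratios scaling (Wnt6 in both) and 1 with a minimum of 5 BPM (Wnt4). They numbered 3 without mutant 6 (Wnt2b added) and 3 without mutant 8 (Rspo3 added). With 1 library left out, 20.1% to 22.7% of all genes had no overlap. Without control 11 and mutant 6 together, the members numbered 3, against 35.3% of all genes. Genes called numbered 0 (783 at an unadjusted p below 0.05), and 1 with quantile normalization, 1 without the trend, 4 with array weights and 0 to 19 with libraries left out, with 3 without mutant 8, 14 without control 11, and 19 without control 11 and mutant 6, a pair chosen after seeing the data. The cause was not tested. Of 111 differences from source markers, 2 moved by more than 1 SD, both Wnt6 at smaller pseudocounts. That rule does not mark a change of direction. With 1 library left out, the difference ran from -0.21 to 0.58 for Rspo3, from -0.56 to 0.52 for Rspo1 and from 0.19 to 0.60 for Wnt4. The Wnt5a level per length in mutants was 11.2 BPM per kb with the comprehensive annotation. No paired analysis was possible because mutants and controls have no sample number in common. Read depth is unknown.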
